A study of Mus musculus with 15 samples.

Results

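Primary mouse hepatocytes that carried wild-type IRE1a for 48 hours were compared with hepatocytes that carried its S724A mutant, which has alanine in place of a serine. The comparison used 6 of the 15 arrays of the series, 3 labelled WT and 3 labelled S724A, chosen by their labels alone. The cells were of strain C57BL/6, were kept in serum-free HepatoZYME-SFM medium, and received the adenovirus Ad-WT or Ad-S724A with no further treatment. A control group of 3 arrays carried EGFP (Ad-EGFP) for the same 48 hours. The other 6 arrays were of cells with a control hairpin (Ad-shCON) or a hairpin against IRE1a (Ad-shIRE1a#2) for 72 hours and then glucagon for 4 hours. The labels give neither the age or sex of the animals, nor the virus dose, nor whether the endogenous IRE1a was still present beside the introduced protein, so each virus is described here as added to whatever the cells already made. The study describes 3 independent experiments, and each group has arrays numbered 1, 2 and 3.

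IRE1a, encoded by Ern1, is a kinase and ribonuclease of the endoplasmic reticulum (ER) membrane. When unfolded proteins accumulate, it splices Xbp1 messenger RNA, and the resulting transcription factor raises genes for protein folding, glycosylation, transport and degradation in the ER, while the same nuclease can cut other messenger RNAs. The serine changed in S724A lies in the kinase's activation segment, and the study asked how phosphorylation there, downstream of glucagon and protein kinase A, bears on glucose production by hepatocytes. The WT and S724A groups received no glucagon, so the comparison is of the basal state.

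Between wild-type and S724A IRE1a, 2 genes differed past the threshold once arrays of the same number were paired, though not when any replicate number was left out. Slc39a6, a plasma membrane zinc importer, and Fam171b, a membrane protein of little known function, are these genes, and both were lower with wild-type IRE1a than with S724A. Defb1, an antimicrobial defensin, and Sgk1, a kinase induced by glucocorticoids, had higher signals with wild-type IRE1a than with S724A or EGFP. Creld2 and most other ER folding factors had higher signals with S724A than with wild-type IRE1a. Values are log2 signals, differences are WT minus S724A on the log2 scale, and errors are limma's standard errors (SE) over 3 arrays per group.

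Of 16294 genes tested, 0 passed an adjusted p of 0.05 in limma's test of WT against S724A, or 0% of the genes. The smallest adjusted p was 0.109, and 997 genes had an unadjusted p under 0.05, 578 of them higher with WT and 419 higher with S724A. Arrays with the same number deviated together from their group means, and with the replicate number as a block limma called 2 genes, or 0.0123% of those tested: Slc39a6 and Fam171b, both higher with S724A. In that fit 1674 genes had an unadjusted p under 0.05. The block called 0 genes on the 6 WT and S724A arrays alone, and 0 when any replicate number was left out, with 2042 genes at an unadjusted p under 0.05 in the first and 1066 to 1455 in the others. By contrast 1250 genes passed between WT and EGFP and 997 between S724A and EGFP, comparisons that share the EGFP arrays. With the block 1726 genes rose and 813 fell with WT, and 1448 rose and 899 fell with S724A. The precision was enough to bound most differences. The 95% confidence interval lay between -1 and 1, that is within a doubling either way, for 15750 genes or 96.7% of those tested. Its median half-width was 0.30. This width is for 1 gene at a time, without adjustment over all genes, and larger differences did not pass with 3 arrays per group. That of Slc39a6, at -0.86, had an adjusted p of 0.109 in limma without the block. The bound does not show that WT and S724A are alike. Between WT and EGFP, where 1250 genes passed, only 316 differed by 1 or more.

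Of the 6 arrays compared, a pair stood apart and carried most of the large differences. WT replicate 3 lay at least 1 below both other WT arrays in 104 genes and at least 1 above both in 143. Its actin 3′ minus 5′ control, which grows as labelled RNA is less complete at the 5′ end, was 1.00 against 0.38 to 0.61 on the other 14 arrays. The same control for Gapdh did not set the array apart, at 0.16 against 0.03 to 0.23 on the other 14. S724A replicate 3 lay at least 1 above both other S724A arrays in 154 genes and at least 1 below both in 9. Of the 38 genes whose WT and S724A means differed by 1 or more, 36 were higher with S724A, but in 24 of the 38 WT replicate 3 was the array that lay low and in 11 S724A replicate 3 was the array that lay high. The 11 include Fam107a, which was higher with WT, by 1.11, and by 1.40 without the arrays numbered 3. They also include Cxcl2, Il23a and Cxcl1, which still differed by 1 or more without those arrays. Srrm2, which encodes a splicing protein and is named here after its values were seen, shows the first kind: its signals were 10.32, 9.98 and 6.00 with WT and 10.28, 10.51 and 10.23 with S724A. Its difference of -1.57 became -0.24 without the arrays numbered 3. The part of RNA quality in such genes was not tested. Only Defb1, Fam171b and the unannotated 9330159M07Rik differed by 1 or more with neither array apart. From the arrays numbered 1 and 2 alone, 8 genes differed by 1 or more: Cxcl2, Fam171b, Sdf2l1, Il23a and Cxcl1 were higher with S724A, and Defb1, Fam107a and Fgf21 were higher with WT.

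**Figure D1:**
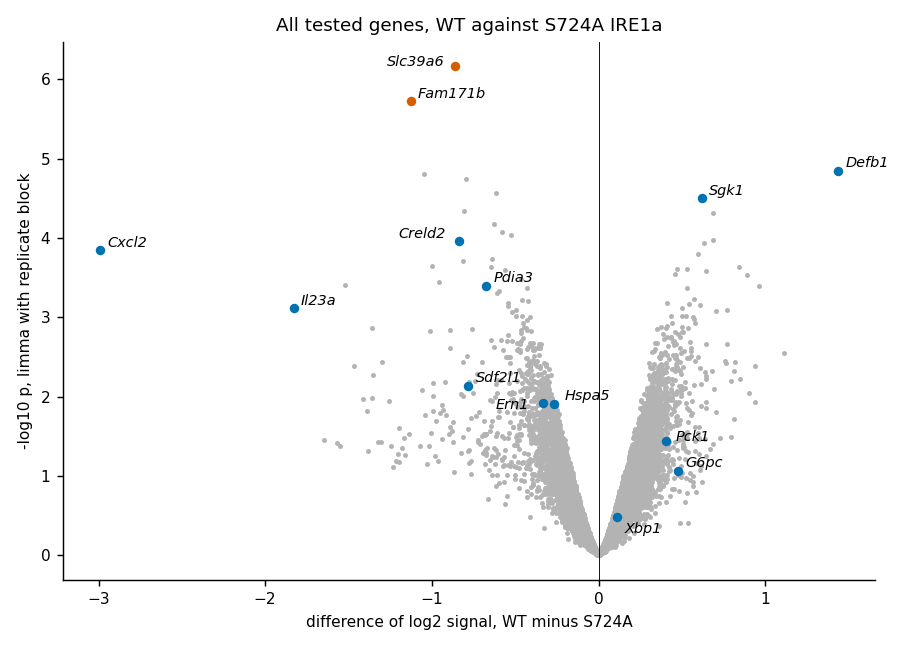
Difference in log2 signal between WT and S724A (horizontal) against -log10 of limma's unadjusted p with the replicate block (vertical) for the 16294 genes tested, 3 arrays a group. Slc39a6 and Fam171b, in orange, are the 2 genes past an adjusted p of 0.05, and the other labelled genes are in blue.

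The Ern1 transcript itself was read first. The probe set that stands for Ern1 (1437119_at) gave 9.41, 8.68 and 8.81 with EGFP, 9.30, 8.89 and 9.07 with WT and 9.68, 9.04 and 9.54 with S724A, in the order of replicates 1, 2 and 3. The groups overlap, and WT was the lower of the pair in all 3 replicates. The difference was -0.34 with an SE of 0.188 and an adjusted p of 0.856 in limma. Against EGFP this probe set differed by 0.12 with WT (adjusted p = 0.78) and by 0.46 with S724A (adjusted p = 0.16, or 0.021 with the replicate block). With the hairpin against IRE1a it fell by 1.47 against the control hairpin (adjusted p = 0.0029). The other Ern1 probe sets, all dimmer, differed from EGFP by -0.08, 0.23, 0.07 and -0.37 with S724A. In the same order they differed from EGFP by -0.29, -0.04, -0.04 and -0.30 with WT. How much of either introduced IRE1a was made cannot be read from these values, and whether the probe sets match the introduced coding sequence was not tested.

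Slc39a6 (1424674_at) showed the smallest p of all genes. Its signals were 11.39, 11.37 and 11.11 with EGFP, 10.26, 10.23 and 10.09 with WT, and 11.11, 11.12 and 10.93 with S724A. All 3 WT arrays lay below all 6 others, and the arrays of each group lay close together. The difference was -0.86 (SE 0.125), a 1.81-fold higher signal with S724A, with an adjusted p of 0.109 without and 0.0111 with the replicate block. Slc39a6 fell by 1.09 with WT against EGFP (adjusted p = 7.1e-05), and with S724A it differed from EGFP by -0.24 (adjusted p = 0.27). Of its other 3 probe sets, 2 gave -0.61 and -0.87, and the dimmest, near background, gave -0.15.

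Fam171b (1454965_at) gave 7.74, 7.10 and 7.78 with EGFP, 6.80, 6.04 and 6.55 with WT and 8.16, 7.07 and 7.54 with S724A. The replicates moved in parallel, with number 2 lowest in every group, and WT was the lowest of each replicate. The difference was -1.13 with an SE of 0.337 and an adjusted p of 0.801; with the replicate block the SE was 0.129 and the adjusted p 0.0155. Fam171b was 2.18-fold higher with S724A than with WT, while its S724A and EGFP means differed by 0.05. Against EGFP, Fam171b differed by -1.08 with WT (adjusted p = 0.067, or 0.00022 with the block). A second, dimmer Fam171b probe set differed by -0.31.

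Defb1 (1419491_at) ran the other way. It gave 8.74, 8.47 and 8.17 with EGFP, 9.91, 9.64 and 9.94 with WT and 8.33, 8.69 and 8.16 with S724A. The WT arrays lay above the rest with no overlap, and the S724A and EGFP arrays were interleaved. The difference was 1.44 (SE 0.233), or 2.71-fold, with an adjusted p of 0.165, and of 0.0589 with the block. Defb1 rose by 1.37 with WT against EGFP (adjusted p = 0.002), and its second probe set gave a WT minus S724A difference of 1.06.

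Sgk1 (1416041_at) was graded over the groups. It gave 10.90, 10.97 and 11.01 with EGFP, 12.19, 12.07 and 12.24 with WT and 11.60, 11.48 and 11.56 with S724A. No array of any group overlapped another group. The WT minus S724A difference was 0.62 (SE 0.104, 1.54-fold), with an adjusted p of 0.165, of 0.0738 with the block and of 0.0435 with variances fitted as a trend on signal. Both viruses raised Sgk1 against EGFP, WT by 1.21 (adjusted p = 5.6e-06) and S724A by 0.59 (adjusted p = 0.0031).

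Creld2 (1452754_at), which encodes an ER-resident folding factor, was also lowest with EGFP, but higher with S724A than with WT. It gave 8.89, 8.47 and 8.87 with EGFP, 9.63, 9.87 and 9.87 with WT and 10.41, 10.91 and 10.56 with S724A. The 3 groups were again free of overlap. The difference was -0.84 (SE 0.155, 1.78-fold higher with S724A), with an adjusted p of 0.203, and of 0.124 with the block. Creld2 rose by 1.05 with WT (adjusted p = 0.00066) and by 1.88 with S724A (adjusted p = 3.3e-06) against EGFP.

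**Figure D2:**
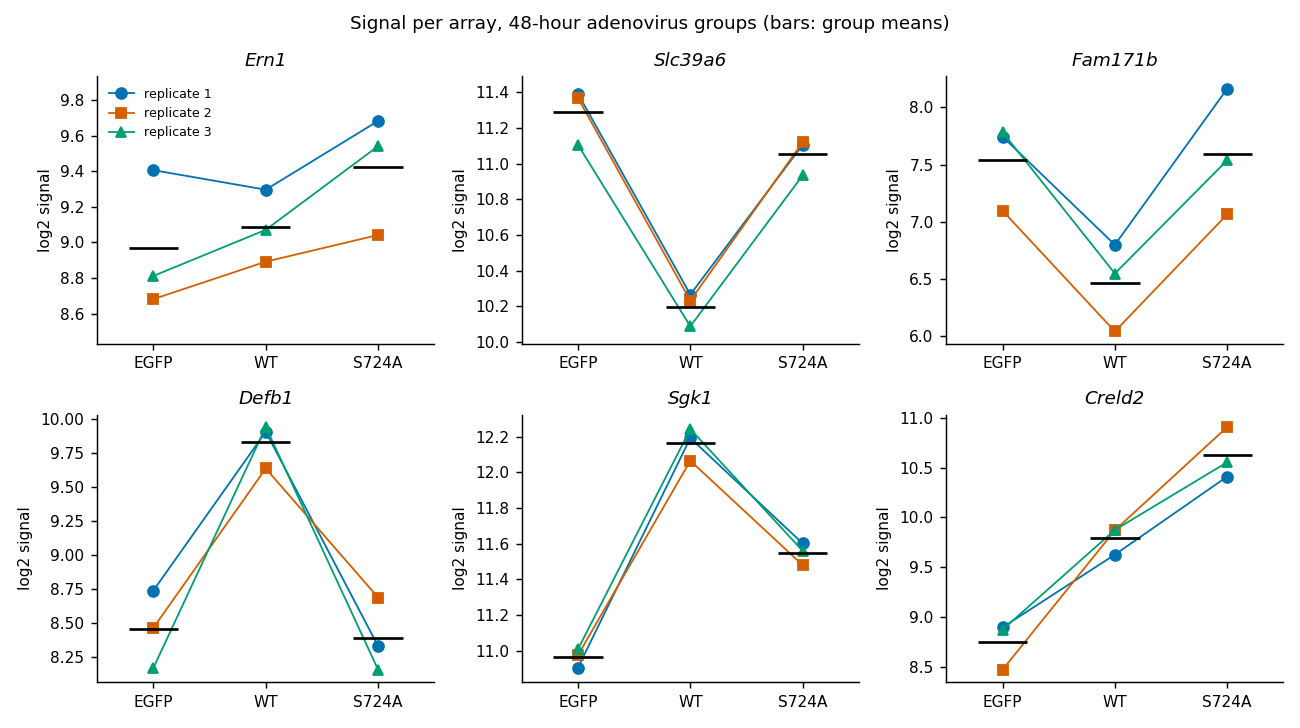
Log2 signal (vertical) of Ern1 and the 5 leading genes on each of the 9 arrays of the 48-hour groups (horizontal); lines join arrays of the same replicate number and short bars are group means. In the Slc39a6 panel the WT arrays lie at 10.09 to 10.26, below all 6 others, and in the Defb1 panel they lie at 9.64 to 9.94, above all 6 others.

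The list of ER chaperones and folding factors extended the pattern of Creld2. Of its 39 tested members 0 passed the limma test of WT against S724A; 10 had an unadjusted p under 0.05, or 14 with the replicate block, and all of these were higher with S724A, against 2.57% and 4.57% of all genes. In the 3 pairs of same-numbered arrays, 24 members (61.5%) were higher with S724A every time, against 14.4% of all genes, and 5 members (12.8%) were higher with WT every time, against 22.6% of all genes. The 3 WT and the 3 S724A arrays did not overlap for 13 members with S724A higher, against a background of 4.69%, and for 1 with WT higher, against 8.56%. The median difference was -0.23 against 0.03 over all genes. Without the arrays numbered 3, 28 members (71.8%) were higher with S724A in both remaining pairs, against 34.4% of all genes. Under quantile normalisation 23 members were higher with S724A and 5 higher with WT in all 3 pairs, and under median centring 20 and 1.

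Both viruses raised the list as such. Against EGFP, 21 of the 39 members rose with WT, where 5.08% of all genes rose, and 27 rose with S724A, where 3.87% did; 1 fell with each, against 2.59% and 2.25% of all genes. The median member was 0.57 above EGFP with WT and 0.83 above it with S724A. Taken array by array, the median member stood 0.51, 0.54 and 0.78 above the EGFP mean with WT and 0.74, 0.90 and 0.80 above it with S724A. The WT values therefore lie below the S724A values in replicates 1 and 2, and WT replicate 3 lies within the S724A range.

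Among the members, all but Creld2, Hspa5 and Dnajb9 named after their values were seen, the classical chaperones sat in the middle of the range. Hspa5, the BiP chaperone that binds unfolded chains in the ER, gave 13.71, 13.77 and 13.72 with WT and 13.97, 14.08 and 13.96 with S724A, against 13.12, 13.20 and 13.20 with EGFP. Its WT and S724A arrays did not overlap, and the difference was -0.27 (SE 0.108, adjusted p = 0.803). Hspa5 rose against EGFP by 0.56 with WT (adjusted p = 0.0048) and by 0.83 with S724A (adjusted p = 0.00026), and its other probe sets gave -0.44 and, in the opposite direction, 0.14.

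Among the protein disulfide isomerases, P4hb (-0.23), Txndc5 (-0.22) and Pdia5 (-0.28) lay near the list's median, Pdia4 differed in direction between pairs, and Tmx1 (0.04) and Txndc12 (0.06) were slightly higher with WT. Pdia6 and Pdia3 differed most of those with the same direction in all pairs. Pdia6 gave 12.19, 11.99 and 12.05 with WT and 12.48, 12.61 and 12.52 with S724A, a difference of -0.46 (SE 0.115, adjusted p = 0.705). Pdia3, which folds glycoproteins with calnexin and calreticulin, gave 11.49, 12.01 and 11.99 with WT and 12.40, 12.55 and 12.55 with S724A. Neither gene's WT arrays overlapped its S724A arrays. Pdia3 passed against EGFP with S724A, by 0.60 (adjusted p = 0.034), while with WT it was -0.08 from EGFP (adjusted p = 0.83), and its WT minus S724A difference of -0.67 (SE 0.154) had an adjusted p of 0.622.

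Sdf2l1, a partner of BiP, differed by -0.78 (SE 0.262) but its pairs were uneven, with 8.23, 9.07 and 9.73 for WT against 9.55, 10.07 and 9.74 for S724A. In replicate 3 its signals were almost equal. Hsp90b1, the ER HSP90, differed by -0.39 (SE 0.110), the calcium-binding lectin chaperone Calr by -0.36 (SE 0.130) and the BiP co-chaperone Dnajc3 by -0.46 (SE 0.113), each with no overlap between the WT and S724A arrays and none past the threshold.

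Some members that rose against EGFP had similar means with both viruses. Fkbp11, a prolyl isomerase, rose by 3.26 with WT and 3.21 with S724A and differed by 0.05 between them (95% interval -0.20 to 0.29). Dnajb9, a BiP co-chaperone and XBP1 target, gave 12.35, 12.63 and 12.63 with WT and 12.33, 12.70 and 12.38 with S724A, against 11.07, 11.25 and 11.26 with EGFP. Its difference was 0.07 (SE 0.202, 95% interval -0.36 to 0.50) and its arrays overlap. Hyou1, an ER HSP70-like chaperone, differed by 0.24 (SE 0.143) in the opposite direction to Hspa5.

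**Figure D3:**
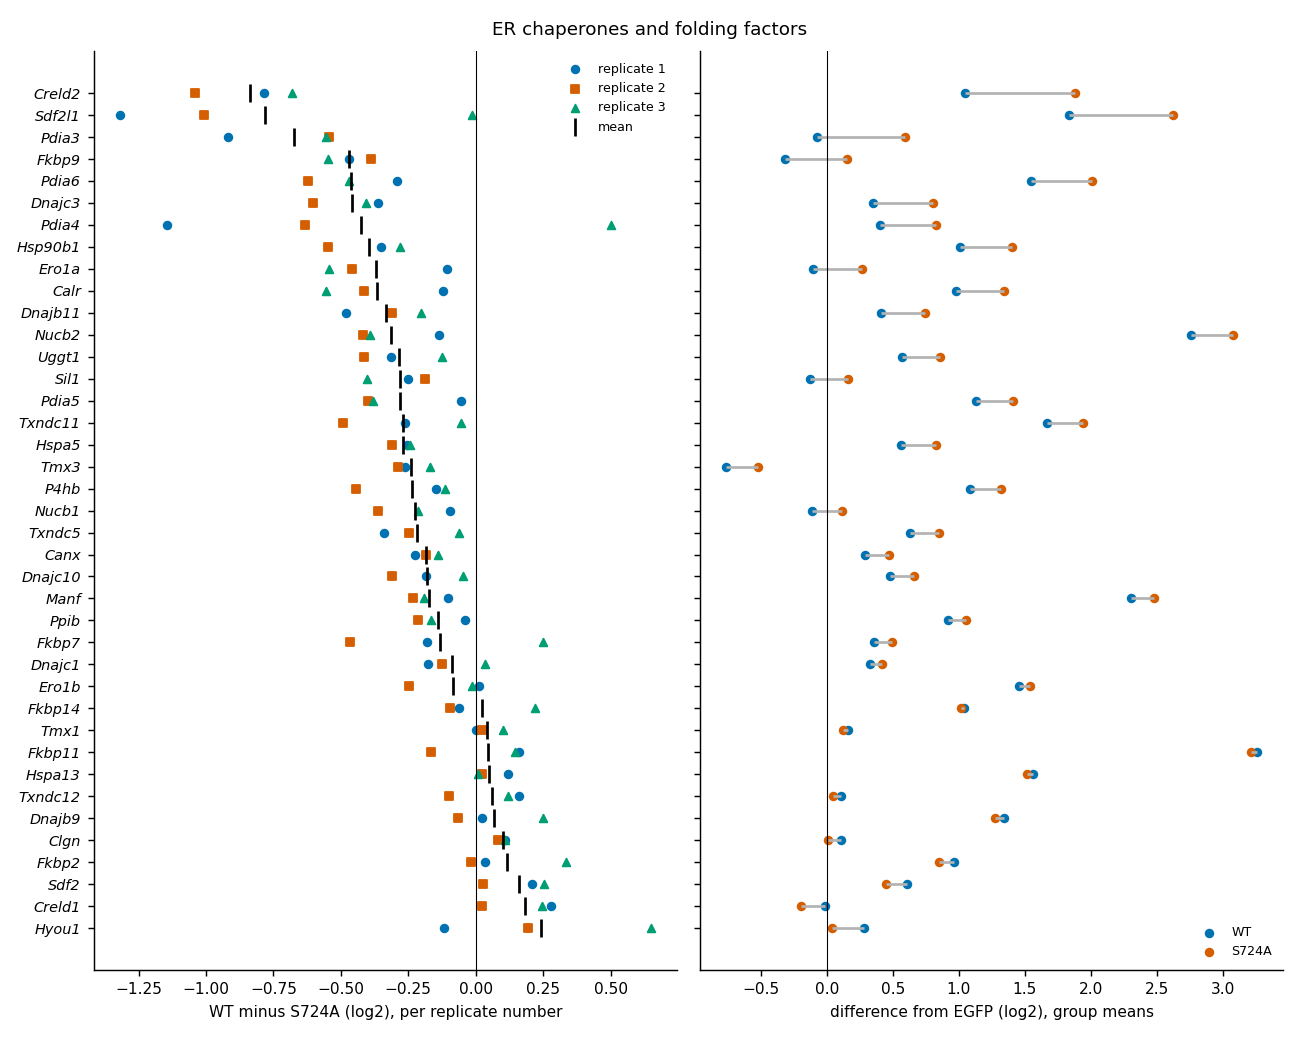
The 39 tested ER chaperones and folding factors, ordered by their mean difference. The left panel plots WT minus S724A in log2 units for each same-number pair and its mean, and the right panel plots the group means of WT and S724A minus EGFP; in 24 genes all 3 pairs lie left of 0.

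Promoter sequences were read for the ER folding genes because the members moved together. Those printed, Creld2, Hspa5, Hsp90b1 and Pdia6, were picked among members that hold the element marked below. They run from the leading gene to the textbook target. The sequences are the 250 bases upstream of the annotated gene start, 5′ to 3′ on the gene's strand, from RefSeq on GRCm38.p6. Capitals mark the ER stress response element (ERSE), searched on both strands as CCAAT, 9 bases of any kind and CCACG; the element is known to bind NF-Y together with ATF6 or XBP1.
Creld2 (chr15:88819396-88819645, plus strand): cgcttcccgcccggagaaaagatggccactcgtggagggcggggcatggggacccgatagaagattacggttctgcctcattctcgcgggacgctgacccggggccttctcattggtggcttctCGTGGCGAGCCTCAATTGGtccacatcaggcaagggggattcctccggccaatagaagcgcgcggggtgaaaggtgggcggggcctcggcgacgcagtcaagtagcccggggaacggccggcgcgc
Hspa5 (chr2:34771840-34772089, plus strand): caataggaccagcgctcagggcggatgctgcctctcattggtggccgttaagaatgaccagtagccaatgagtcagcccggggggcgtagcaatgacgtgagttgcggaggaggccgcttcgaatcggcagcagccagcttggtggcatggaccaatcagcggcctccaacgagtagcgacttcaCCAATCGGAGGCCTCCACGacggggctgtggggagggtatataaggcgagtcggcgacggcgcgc
Hsp90b1 (chr10:86705445-86705694, minus strand): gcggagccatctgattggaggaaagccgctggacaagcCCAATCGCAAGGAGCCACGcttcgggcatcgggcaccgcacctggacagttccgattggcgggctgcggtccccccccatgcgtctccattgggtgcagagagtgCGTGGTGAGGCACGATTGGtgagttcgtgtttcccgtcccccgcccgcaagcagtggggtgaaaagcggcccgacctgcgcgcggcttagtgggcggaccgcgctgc
Pdia6 (chr12:17266339-17266588, plus strand): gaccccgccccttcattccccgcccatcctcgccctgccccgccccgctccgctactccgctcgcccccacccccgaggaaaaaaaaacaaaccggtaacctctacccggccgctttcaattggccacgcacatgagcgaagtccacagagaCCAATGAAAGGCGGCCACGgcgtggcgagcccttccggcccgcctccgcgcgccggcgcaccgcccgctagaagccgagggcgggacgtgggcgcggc

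In these windows the ERSE begins 126 bases before the gene start in Creld2, 65 in Hspa5, 98 in Pdia6, and 212 and 107 in Hsp90b1. The search also used ERSE-II (ATTGG, 1 base of any kind and CCACG) and the UPRE core (TGACGTGG), on both strands. Of 33 ER folding genes with a promoter in the table, 11 (33.3%) held at least 1 of these motifs, against 142 of 12994 tested genes with a promoter (1.09%). The ERSE alone was in 8 of the 33 and in 19 of the 12994 (0.146%). Sdf2l1 (-0.78), Pdia3 (-0.67) and Fkbp9 (-0.47), the largest differences of the list after Creld2, held none of these motifs. Of the 11 folding genes with a motif, 10 were higher with S724A in all 3 pairs, with a median difference of -0.27, and of the 22 without, 11 were, with a median of -0.16. These are descriptions of a list that holds known targets of the element, and a match is not a measured site.

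Further branches of ER function were counted in the same way, where 14.4% of all genes were higher with S724A and 22.6% with WT in all 3 pairs. N-glycosylation, which builds and attaches glycans in the ER, had 11 of 31 members (35.5%) higher with S724A in all 3 pairs and 0 higher with WT, with a median of -0.13; Ddost and Rpn2, subunits of the oligosaccharyltransferase, differed by -0.38 and -0.33. Without the arrays numbered 3, 24 of the 31 (77.4%) were higher with S724A in both pairs, against 34.4% of all genes. ER-associated degradation, which returns misfolded proteins to the proteasome, had 9 of 25 higher with S724A and 2 with WT, with a median of -0.08. In these lists too, 0 members passed limma's test of WT against S724A, and 7 and 3 members had an unadjusted p under 0.05, all higher with S724A, against 2.57% of all genes. Syvn1, the ubiquitin ligase of this pathway, differed by -0.28 (SE 0.19).

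Secretory transport had a median difference near 0 between the viruses. Of 29 members of the COPII and ER-Golgi list, 22 rose with WT and 21 with S724A against EGFP, where 5.08% and 3.87% of all genes rose. The median WT minus S724A difference was 0.00, with 5 members higher with WT and 6 higher with S724A in all pairs. The shares of all genes were 22.6% and 14.4%. Of 22 members of the translocation and signal peptidase list, 20 rose with WT and 18 with S724A. Their median difference was likewise 0.00. In all pairs 8 members (36.4%) were higher with WT and 5 (22.7%) higher with S724A, and under median centring 4 and 5. Without the arrays numbered 3, the list had 8 (36.4%) higher with WT and 9 (40.9%) higher with S724A in both remaining pairs. The shares of all genes over those pairs were 31% and 34.4%. Its members ranged from Ssr1, of the translocon-associated complex, at 0.53 (pairs in both directions) to Srprb, of the signal recognition particle receptor, at -0.35. Of 12 transcripts reported as substrates of IRE1's nuclease, 5 fell with each virus against EGFP, where 2.59% of all genes fell with WT and 2.25% with S724A; with the block 7 fell with WT and 8 with S724A, where 4.99% and 5.52% of all genes fell. Hgsnat, a lysosomal acetyltransferase of that list, gave 8.30, 8.26 and 8.40 with WT and 8.26, 8.09 and 8.05 with S724A, against 10.07, 9.75 and 9.92 with EGFP. Its difference between the viruses was 0.19 (95% interval -0.04 to 0.41), and the median of the list was -0.08.

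The sensors and transcription factors of the unfolded protein response had a median of -0.03. In all 3 pairs 2 of 15 members were higher with WT (22.6% of all genes) and 4 with S724A (14.4%). Creb3l1, a membrane-bound transcription factor of the ER, had the largest difference of the list, with 6.48, 6.46 and 6.20 for WT and 5.86, 5.79 and 5.92 for S724A. Its groups did not overlap, and the difference was 0.52 (SE 0.12, adjusted p = 0.602, or 0.278 with the block). Xbp1, the target of IRE1's splicing, gave 12.80, 13.06 and 12.94 with WT and 12.80, 12.91 and 12.75 with S724A, against 12.39, 12.21 and 12.31 with EGFP. Its total signal rose with each virus, by 0.63 with WT (adjusted p = 0.0031) and by 0.52 with S724A (adjusted p = 0.014), and the difference was 0.11 (95% interval -0.13 to 0.35). Spliced and unspliced Xbp1 were not told apart in these values. Atf4, the main effector of the PERK branch, and Ddit3 (CHOP), its target, did not pass against EGFP with either virus.

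Atf4 gave 12.72, 12.76 and 12.51 with WT and 12.74, 12.74 and 12.61 with S724A, a difference of -0.03 (95% interval -0.30 to 0.23). Ddit3 gave 9.29, 9.47 and 9.46 with WT and 9.43, 9.47 and 9.30 with S724A, a difference of 0.01 (95% interval -0.40 to 0.42). Both genes' arrays overlap. Over the list of PERK, ATF4 and CHOP targets the median was -0.01. In all pairs 8 of 31 members were higher with WT and 8 with S724A, against 22.6% and 14.4% of all genes.

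Gluconeogenic genes, to which the study's question points, were examined next. G6pc, which encodes the catalytic subunit that releases free glucose, gave 11.15, 7.83 and 8.81 with EGFP, 12.23, 8.56 and 8.68 with WT and 11.85, 8.37 and 7.84 with S724A. Replicate 1 was the high array in every group, and WT exceeded S724A in each pair. The difference was 0.47 with an SE of 1.07 (adjusted p = 0.972), and with the replicate block the SE was 0.253 and the adjusted p 0.54. Leaving out WT replicate 1 turned it to -0.73.

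Pck1, the cytosolic enzyme that commits oxaloacetate to glucose, gave 5.34, 5.02 and 5.71 with EGFP, 6.50, 5.93 and 6.74 with WT and 6.17, 5.80 and 5.99 with S724A. WT was above S724A in all 3 pairs while the groups overlap. The difference was 0.41 (SE 0.224, 95% interval -0.07 to 0.89, adjusted p = 0.851). Pck1 rose with WT against EGFP by 1.03 (adjusted p = 0.01), and S724A stood 0.63 above EGFP (adjusted p = 0.11, or 0.033 with the block).

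Tat, which degrades tyrosine for gluconeogenesis, gave 11.71, 10.96 and 11.22 with WT and 12.09, 11.14 and 11.61 with S724A, and Ppargc1a, the coactivator induced by glucagon, gave 4.62, 4.06 and 4.16 with WT and 4.74, 4.15 and 3.73 with S724A. Tat was higher with S724A in each pair, by 0.32 on average (a difference of -0.32, SE 0.271). The Ppargc1a signals lay near the dim end of the arrays and overlap, with a difference of 0.07 (SE 0.318). Over the gluconeogenesis list 7 of 22 members (31.8%) were higher with WT and 6 (27.3%) higher with S724A in all pairs, with a median of 0.05. The shares of all genes were 22.6% and 14.4%. The list of glucagon, cAMP and protein kinase A signalling had 3 of 27 higher with WT and 7 higher with S724A, with a median of -0.05, and 0 members of either list passed the limma test. At an unadjusted p under 0.05 the gluconeogenesis list had 0 members, where 3.55% of all genes were higher with WT and 2.57% with S724A. With the block 3 members (13.6%) were higher with WT and 2 (9.09%) with S724A, against 5.71% and 4.57% of all genes.

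Glucocorticoid and FOXO targets, the list that holds Sgk1, had a median of 0.09. In all pairs 12 of 25 members (48%) were higher with WT and 5 (20%) with S724A, against 22.6% and 14.4% of all genes. Tsc22d3 (GILZ) and Fkbp5, induced by glucocorticoids, differed by 0.25 and 0.20, and Irs2 by -0.29. Zinc transporters and metallothioneins, the list that holds Slc39a6, had 3 of 24 higher with WT and 6 higher with S724A, and Slc39a6 was the 1 member called with the block. The metallothioneins Mt1 and Mt2, which respond to cell zinc, differed by 0.12 and 0.09.

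Fatty acid oxidation and PPARA targets had a median of 0.15. In all 3 pairs 12 of 25 members (48%) were higher with WT and 1 (4%) with S724A, against 22.6% and 14.4% of all genes. Fgf21, a hormone made by the fasting liver, gave 6.44, 6.12 and 7.65 with EGFP, 7.83, 8.36 and 9.001 with WT and 6.58, 7.49 and 8.23 with S724A. WT was highest in each replicate, the groups overlap because replicates differ, and the difference was 0.96 with an SE of 0.505 (adjusted p = 0.851; with the block SE 0.198 and adjusted p = 0.201). Pdk4, which restrains glucose oxidation, differed by 0.56 (SE 0.399), and the peroxisomal enzyme Ehhadh by 0.53 (SE 0.377). The receptor Ppara differed by -0.56 (SE 0.402), with 1 low WT array, replicate 3, at 8.37 against 9.78 and 9.94.

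Chemokines and NF-kB targets held the largest difference of any gene tested, that of Cxcl2, and were highest on S724A replicate 3. Cxcl2, a neutrophil chemokine, gave 7.85, 7.18 and 8.19 with EGFP, 7.69, 7.77 and 8.13 with WT, and 8.996, 10.74 and 12.83 with S724A. The S724A arrays lay above all others but were far apart from each other. The difference was -2.99 (SE 0.872, 95% interval -4.86 to -1.12), with an adjusted p of 0.801, and of 0.145 with the block. Without the arrays numbered 3 it was -2.14. Cxcl2 passed with S724A against EGFP, by 3.11 (adjusted p = 0.049).

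Il23a, a cytokine subunit, gave 5.04, 5.11 and 5.23 with WT and 5.87, 6.53 and 8.47 with S724A, and Tnfaip3 (A20), an inhibitor of NF-kB, gave 7.94, 9.39 and 8.76 with WT and 8.29, 10.17 and 11.87 with S724A. For both, S724A replicate 3 was the highest array. Without the arrays numbered 3, the difference of Il23a went from -1.83 to -1.12 and that of Tnfaip3 from -1.41 to -0.56. Of the 25 members of the chemokine and NF-kB list, 13 (52%) were higher with S724A and 5 (20%) higher with WT in all 3 pairs, the latter including Defb1. The shares of all genes were 14.4% and 22.6%. The list's median difference was -0.13, -0.20 and -1.06 in pairs 1, 2 and 3, and over both other pairs together 13 members (52%, against 34.4% of all genes) were higher with S724A, with a median of -0.19.

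**Figure D4:**
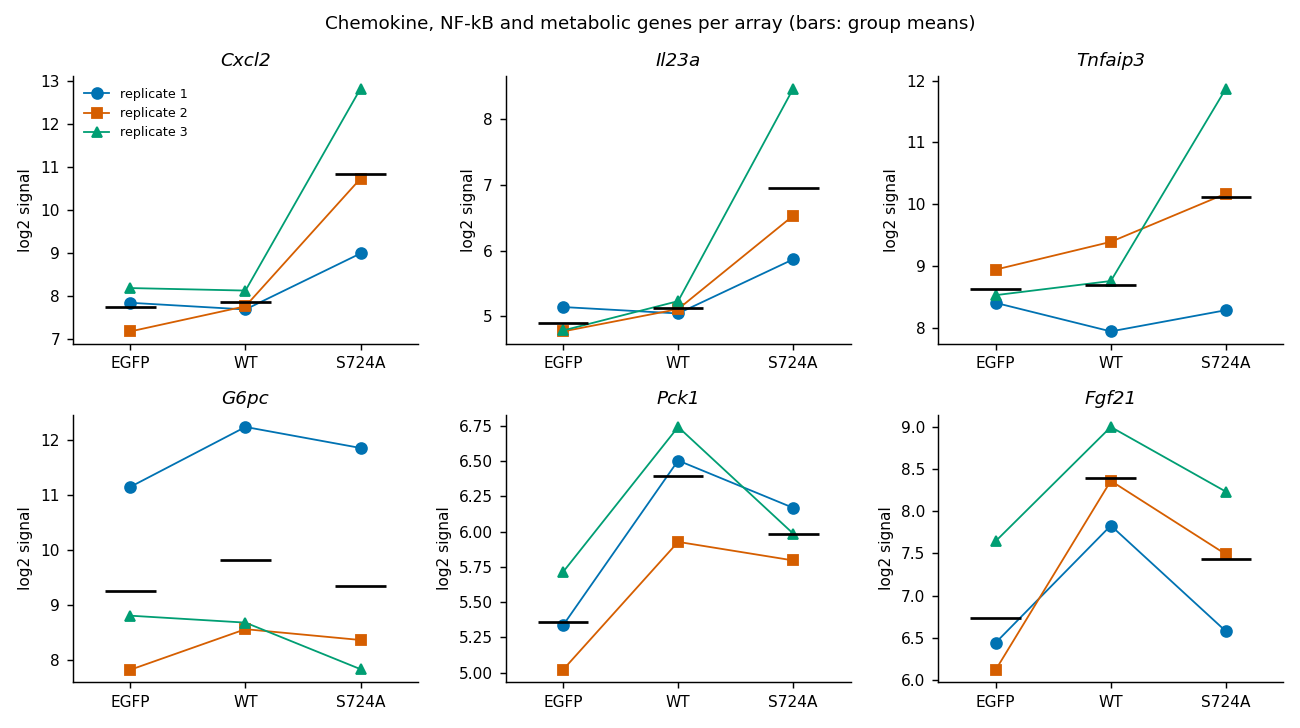
Log2 signal (vertical) of Cxcl2, Il23a, Tnfaip3, G6pc, Pck1 and Fgf21 on each of the 9 arrays of the 48-hour groups (horizontal); lines join arrays of the same replicate number and short bars are group means. S724A replicate 3 is the highest array for Cxcl2 (12.83), and replicate 1 is the high array of every group for G6pc.

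Markers of other liver cells bear on the chemokine result, since in bulk RNA fewer cells of a type and less RNA per cell cannot be told apart. The mean log2 signal of 4 measured hepatocyte markers was 13.2 to 13.4 on the WT arrays and 13.1 to 13.3 on the S724A arrays. That of 6 macrophage markers was 6.56 to 6.69 with WT and 6.49 to 6.57 with S724A, with Adgre1, Clec4f, Marco and C1qa all at 5.66 or less, Csf1r at 6.60 to 7.06 and Cd68 at 11.8 to 12.1. In the longer macrophage list 5 of 16 members were higher with WT and 2 higher with S724A in all 3 pairs, the latter being Lyz1 (-0.59) and Cd14 (-0.46), with a median of 0.04. The shares of all genes were 22.6% and 14.4%. The 5 endothelial markers had means of 5.50 to 5.69 with WT and 5.24 to 5.45 with S724A, and so did not overlap, with WT higher. In the longer endothelial list 9 of 14 members had a mean under 6. Among all such dim genes that differed in a single direction in all 3 pairs, WT was the higher in 83.1%. Of the 14 members, 5 were higher with WT and 1 with S724A in all 3 pairs, and under quantile normalisation 2 and 2. The 4 lymphocyte and neutrophil markers stood at 4.93 to 5.01 with WT and 4.89 to 5.00 with S724A, with S100a8 between 3.75 and 4.22. The part of other cell types in the chemokine signals was not tested further.

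Interferon-response genes had a median of 0.11. In all 3 pairs 16 of 29 members (55.2%) were higher with WT and 3 (10.3%) with S724A, against 22.6% and 14.4% of all genes. The antiviral genes Rsad2, Oasl2 and Ifit1 differed by 0.64, 0.45 and 0.44, while the guanylate-binding proteins Gbp6 and Gbp2 differed by -0.48 and -0.43. Rsad2 gave 12.16, 11.82 and 11.43 with WT and 11.50, 11.09 and 10.89 with S724A. Its WT and S724A arrays overlap, and no adjusted p in the list passed. The counts moved with the scaling: under median centring 13 members were higher with WT and 7 higher with S724A. All groups carried adenovirus, and the dose received by each was not given.

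Cell cycle genes had the highest share with WT above S724A: 22 of 32 members (68.8%) in all 3 pairs, against 2 (6.25%) with S724A above, and a median of 0.20. The shares of all genes were 22.6% and 14.4%. Esco2, which establishes cohesion between sister chromatids, gave 5.73, 6.04 and 7.91 with WT and 4.85, 4.93 and 7.07 with S724A, against 3.85, 3.55 and 4.72 with EGFP. Mki67, the proliferation antigen, gave 8.04, 9.04 and 9.82 with WT and 7.29, 8.28 and 9.64 with S724A.

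The order of replicates was alike in WT and S724A for both genes, with replicate 3 highest, so the groups overlap. Esco2 differed by 0.94 (SE 0.585, adjusted p = 0.857) and Mki67 by 0.57 (SE 0.614, adjusted p = 0.931). Of the genes for the MCM replication helicase, Mcm5 was higher with WT in all pairs (0.17), while Mcm3 (-0.14) and Mcm4 (-0.17) were higher with S724A in all pairs; under median centring no member of the list was higher with S724A in all 3. Without the arrays numbered 3, 22 members (68.8%) were higher with WT and 7 (21.9%) higher with S724A in both pairs. The shares of all genes over those pairs were 31% and 34.4%. Against EGFP, 8 of the 32 cell cycle members rose with WT and 0 with S724A in limma without the block. Of all genes 5.08% and 3.87% rose. At an unadjusted p under 0.05, 16 members were higher with WT and 14 with S724A, against 2163 and 1993 of all 16294 genes. With the replicate block 15 rose with WT and 14 with S724A, where 10.6% and 8.89% of all genes rose, and the median member stood 0.58 above EGFP with WT and 0.38 above it with S724A. Between the viruses 0 members passed in limma, and 0 had an unadjusted p under 0.05. With the block 2 had, both higher with WT (6.25%), which is near the 5.71% of all genes.

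The split of directions across the whole array depends on signal. Over all genes, WT was the higher in 61.1% of the genes that differed in a single direction in all 3 pairs. Among 5325 genes with a mean signal under 6 that share was 83.1%, and among 10969 brighter genes it was 50.6%. The median cell cycle member had a signal of 8.29 and the median ER folding gene 10.48, and 3 and 0 of their members had a mean under 6.

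**Figure D5:**
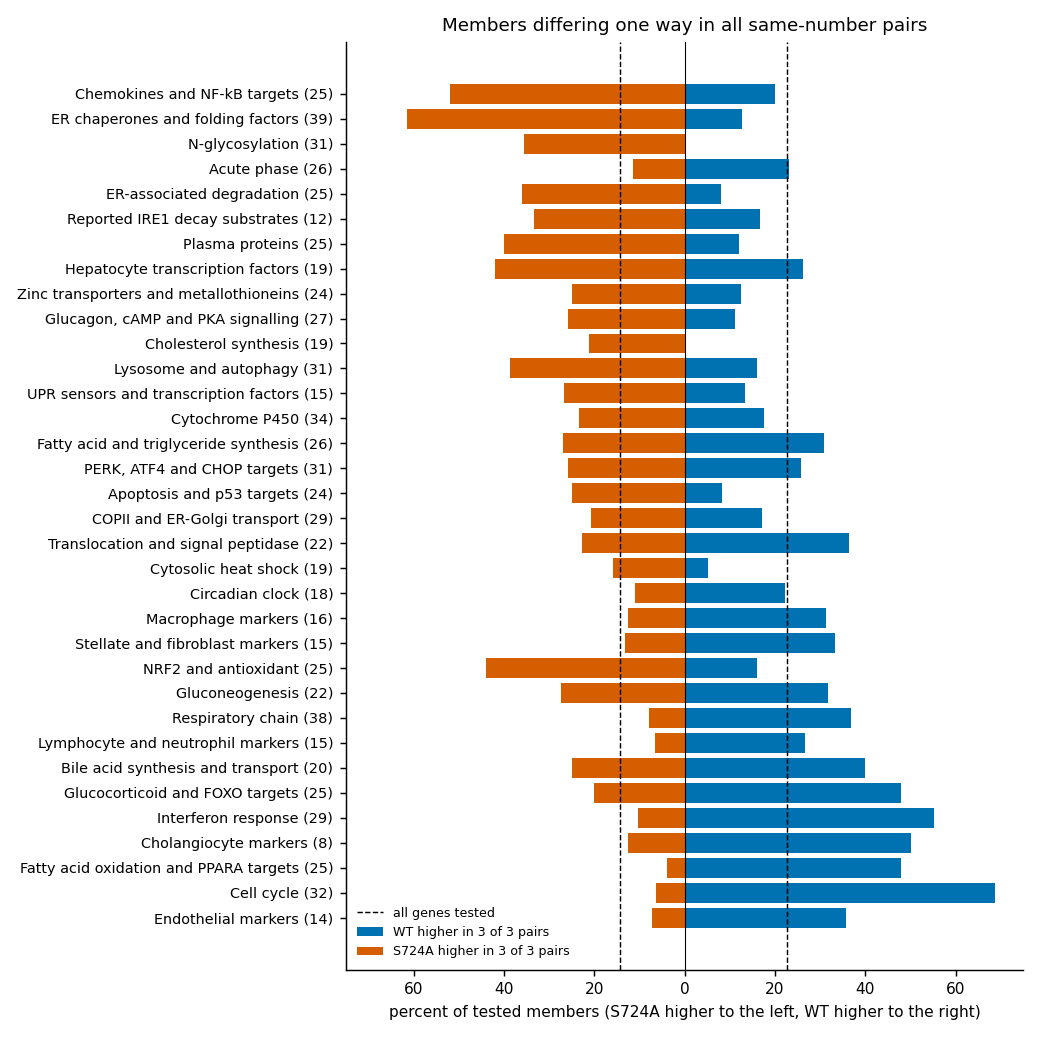
Percent of the tested members of each gene list (number in brackets) that were higher with S724A (left, orange) or with WT (right, blue) in all 3 same-number pairs; dashed lines give the shares over all genes, 14.4% and 22.6%. ER chaperones reach 61.5% on the left, and cell cycle genes reach 68.8% on the right.

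The hairpin arm gives a comparison on arrays that WT minus S724A did not use. In it 38 genes (0.233%) passed between the IRE1a hairpin and the control hairpin, both with glucagon. Of the leading genes, Slc39a6 differed there by 0.10, Fam171b by -0.53, Defb1 by 0.13, Sgk1 by -0.25 and Creld2 by -0.06, none past the threshold. The median ER folding gene differed by -0.07 and the median cell cycle gene by 0.32. Across the 16294 genes, which are not independent replicates, the difference between WT and S724A had a Pearson correlation of 0.17 and a Spearman correlation of 0.25 with that between the hairpins.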

How the data were processed

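RNA was measured on 15 Affymetrix arrays. The authors processed them with GCRMA, per the submitters' processing notes (version not given in the sources used here), and each deposited value is a log2 signal of 1 probe set, the scale being read from the values. GCRMA normalises by quantiles across arrays, so a shift shared by most genes cannot be seen.

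Of 45101 probe sets, 34945 had 1 symbol in the platform annotation, 932 several and 9160 none. The probe set with the highest mean stood for a gene (18193 genes), and a gene was tested when 3 of the 15 arrays reached 4 (16294 genes). In R 4.3.3, limma 3.58.1 (lmFit, eBayes) fitted 5 group means, with two-sided p-values adjusted by Benjamini-Hochberg over all genes tested and a threshold of 0.05. The fit was tested on simulated data.

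The replicate numbers pair the arrays: same-number arrays of the 48-hour groups correlated in their deviations from group means at 0.20 to 0.54 in all 9 pairs. The value with the number as a block is printed where it changes a call. Whether the 3 arrays of a group came from separate animals is not stated, so p-values measure the spread between these samples.

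The genes and lists were chosen with earlier results of these data known. Genes named by rule were Ern1, the 5 leading genes, a core of 10 (Atf4, Ddit3, Xbp1, Dnajb9, Hspa5, Tat, Fgf21, G6pc, Ppargc1a, Pck1) and any gene past the threshold; all others were named after their values were seen. Lists were described by counts and medians, with no set test. The alternatives tried were other normalisations, filters, probe set rules and variance models, the block, and leaving out arrays.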

Additional observations from a re-analysis of the deposited data

Results flagged for a closer look

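The probe set 1427585_at, which has no gene symbol in the annotation used here, carried a signal outside the comparison of named genes. It stood at 2.40, 2.34 and 2.33 with EGFP, at 2.31, 2.39 and 2.48 with WT and at 4.60, 6.48 and 7.80 with S724A, so that all 3 S724A arrays lay above the control arrays and above WT. The difference of the deposited values, WT minus S724A, was -3.90, against a group at background. The probe set reached the value of 4 used as a filter on the 3 S724A arrays only, so it was tested because of the group in which it is high, and no p is given for it. It was 2.45, 2.39 and 2.30 with the control hairpin and 2.59, 2.84 and 3.38 with the IRE1a hairpin.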

How the results depend on the processing

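The count of genes past the threshold stayed at 0 except in 3 settings. With the replicate block 2 genes passed, 0 higher with WT and 2 higher with S724A, likewise with the block after quantile normalisation, and with variances fitted as a trend 2 passed, 1 in each direction. Leaving out any single array gave 0 in limma (668 to 1221 genes at an unadjusted p under 0.05), as did the block without any replicate number or on the 6 arrays alone, so neither call of the block stands on 2 replicates. The cause was not tested. Slc39a6 had adjusted p-values of 0.0111, 0.0144 and 0.0435 in those 3 settings, and Fam171b of 0.0155 and 0.0435 with the block. The block changed no other call of WT against S724A. Slc39a6, Sgk1, Defb1, Fam171b and Creld2 kept their direction in all 23 alternatives tried. Near-0 differences turned: Ppargc1a to -0.017 with a floor of 4, Ddit3 to -0.31 and Atf4 to 0.027 with the mean of a gene's probe sets. With the replicate block and without replicate 3, and again without both arrays numbered 3 and no block, a setting chosen after seeing the data, Ppargc1a was -0.10, Dnajb9 -0.022 and Ddit3 -0.071. Over the fits that each leave out 1 array, G6pc ranged from -0.73 to 1.73, Ppargc1a from -0.16 to 0.34, Dnajb9 from -4.4e-05 to 0.18, Ddit3 from -0.043 to 0.069 and Atf4 from -0.081 to 0.040.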
